A study of Mus musculus with 15 samples.

Results

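The genes described here are 9 complement components and receptors, C1qa, C1qb, C1qc, C4b, C3, C3ar1, C5ar1, Itgam and Serping1, chosen by name among the 55401 genes counted in the hippocampus of each mouse. They and the gene lists used below were chosen with earlier results of these data known. The counts called among them are therefore a description, not independent support. Hippocampal RNA of 15 mice was sequenced, all of them females. The study's methods give an age of 18 to 20 months, without saying whether at the start of treatment or when tissue was taken. Its discussion names an older age for the mice whose dendritic spines were counted. The 4 groups were WT mice on vehicle (Tg2576 -/-, 4 mice), WT mice on DHA (Tg2576 -/-, 4 mice), Tg2576 mice on vehicle (Tg2576 +/+, 4 mice) and Tg2576 mice on DHA (Tg2576 +/+, 3 mice). Tg2576 mice carry a human amyloid precursor protein transgene with the Swedish mutation, driven by a prion protein promoter, and the WT mice were their transgene-negative littermates. DHA, the omega-3 fatty acid docosahexaenoic acid, was given daily for 5 weeks at 450 mg/kg, and vehicle was sesame oil. The design puts 2 questions to the complement genes: whether they differed between Tg2576 and WT mice, and whether DHA moved them in either genotype.

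Complement is a cascade of plasma and tissue proteins that tags surfaces for removal and calls in phagocytes. C1q, built from the chains of C1qa, C1qb and C1qc, recognises a surface and sets off the classical pathway through C4 and C3, and cleavage of C3 and C5 releases small peptides that act on C3ar1 and C5ar1. Itgam is the alpha chain of complement receptor 3, which binds deposited C3 fragments, and Serping1 encodes the C1 inhibitor, which blocks the C1 proteases. In the brain C1q comes mainly from microglia, which also carry the receptors, while astrocytes are a known source of C3 and C4, and the system is known for its part in synapse removal and for its presence around amyloid plaques.

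The 15 libraries held 17372864 to 46596489 reads assigned to genes, with a median of 25645977. Levels are given as CPM, read counts scaled to library size and TMM factor, and a gene is said to have passed the test, or to be called, where the unadjusted p of edgeR's quasi-likelihood test was under 0.01, the threshold of the study. All 9 genes were among the 19536 that passed the filter on low counts. App, whose reads can come from both the mouse gene and the transgene, lay between 1572 and 1787 CPM in the WT mice and between 2076 and 2787 CPM in the Tg2576 mice, and every mouse fell on the side of its label. Summed markers of lymphocytes lay between 0.338 and 1.78 CPM and those of neutrophils between 0.0880 and 4.31 CPM, the highest in Tg2576 DHA mice 2 and 1. Of the 2 neutrophil markers that could be tested, S100a9 and S100a8, S100a8 was called higher in Tg2576 mice. This was under DHA (log2 2.39, beside 1.06% of all genes called higher) and over both treatments (log2 1.77, beside 1.94%). The markers of choroid plexus (6 genes, led by Ttr and Kl) ran from 61.3 to 5815 CPM across the mice, and all 3 Tg2576 DHA mice stood at 3099 CPM or above. In whole tissue, fewer cells of a type and less RNA per cell cannot be told apart.

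Per kilobase of exon, the genes fell into an abundant and a scarce set. C1qa had the highest mean over the 15 mice at 78.9 CPM per kilobase, followed by C4b at 54.6, C1qb at 54.0 and C1qc at 29.6 CPM per kilobase. Serping1 had a mean of 3.78 CPM per kilobase, C3 of 3.38, Itgam of 1.55, C3ar1 of 0.722 and C5ar1 of 0.170 CPM per kilobase. The ranges over mice of neighbours in this order overlapped, except between C1qc, whose lowest mouse was at 17.2 CPM per kilobase, and the genes below it, of which the highest mouse was at 7.59. Itgam is understated on this scale: 3450 of its 5024 exon bases also belong to an overlapping gene model, Gm49368, and reads on shared bases are left out by the counting. Over its 1574 unshared bases the group means of Itgam lay between 4.25 and 5.57 CPM per kilobase.

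Promoters are shown for 3 genes: C1qb and C1qc, whose levels moved together from mouse to mouse, and C3ar1, the receptor that separated the genotypes in every mouse. Each is the 250 bases before the gene's RefSeq start on GRCm38.p6, written 5′ to 3′ on the gene's strand. Capitals mark the ETS core GGAAGT, the letters bound by ETS-family factors, on either strand.
C1qb (chr4:136886201-136886450, minus strand): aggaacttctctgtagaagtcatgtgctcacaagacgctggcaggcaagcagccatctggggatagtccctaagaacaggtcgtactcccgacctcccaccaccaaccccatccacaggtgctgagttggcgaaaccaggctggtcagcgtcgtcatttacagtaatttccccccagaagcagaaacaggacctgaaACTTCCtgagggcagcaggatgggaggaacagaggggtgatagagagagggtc
C1qc (chr4:136892915-136893164, minus strand): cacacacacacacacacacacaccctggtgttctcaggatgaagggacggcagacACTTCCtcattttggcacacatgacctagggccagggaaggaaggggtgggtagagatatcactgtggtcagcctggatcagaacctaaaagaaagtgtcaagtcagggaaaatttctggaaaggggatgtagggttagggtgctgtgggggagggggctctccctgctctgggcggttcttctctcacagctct
C3ar1 (chr6:122856158-122856407, minus strand): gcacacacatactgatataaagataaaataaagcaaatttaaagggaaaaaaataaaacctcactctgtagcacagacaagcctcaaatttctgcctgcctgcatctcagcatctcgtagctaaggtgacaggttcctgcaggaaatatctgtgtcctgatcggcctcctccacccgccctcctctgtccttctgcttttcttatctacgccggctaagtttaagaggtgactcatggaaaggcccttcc
RefSeq gave a promoter for 6 of the 9 genes. The ETS core was present in the windows of C1qb, C1qc and C5ar1 (2 matches in C5ar1) and in 19.7% of all 32851 promoters cut to the same length. Neither TTCNNNGAA, the letters of the GAS element, nor GAAANNGAAA, those of the ISRE, was found in any of the 6 windows, and they were present in 7.02% and 2.98% of all promoters. A match is a description of the letters, not of binding. The RefSeq starts of C1qc, C3ar1 and C5ar1 lie inside the gene bounds used for counting, so that these windows reach into the annotated genes, by a few bases for C3ar1.

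Between genotypes, the 3 C1q chains, the C3a receptor and the C1 inhibitor passed over both treatments, all higher in Tg2576 mice. C4b, C5ar1 and Itgam, also with positive differences, did not pass there (edgeR unadjusted p = 0.0117, 0.0120 and 0.0570). No difference was detected for C3. Under vehicle 3 of the 9 genes passed the test, all higher in Tg2576 (C1qc, C3ar1 and Serping1), beside 3.09% of all genes in either direction and 1.16% higher. Under DHA the count was again 3, the same 3 genes, beside 1.75% of all genes and 1.06% higher. Without Tg2576 vehicle mouse 1 the count under vehicle was 5, beside 4.95% of all genes. Without Tg2576 DHA mouse 3 or WT DHA mouse 1 the count under DHA was 1, beside 1.11% and 1.25%. Over both treatments 5 passed, C1qa, C1qb, C1qc, C3ar1 and Serping1, beside 3.85% of all genes and 1.94% higher. The median log2 fold change of the 9 genes was 0.59 under vehicle, 0.60 under DHA and 0.58 over both, beside a median within 0.01 of 0 over all genes tested. The unadjusted p was under 0.05 for 6 of the 9 under vehicle, beside 2100 of all 19536 genes, and for 4 under DHA, beside 1341. After adjustment over all genes tested, none of the 9 passed with edgeR at 0.05 under either treatment alone. The shares of all genes passing adjustment were 0.0154% under vehicle and 0.00512% under DHA. With DESeq2 C3ar1 and Serping1 passed adjustment under vehicle (adjusted p = 0.0374 and 0.0430) and none of the 9 under DHA. DESeq2 called more genes, 4.23% of all under vehicle and 2.48% under DHA at an unadjusted p under 0.01. Its share passing adjustment is not given here. With edgeR C3ar1 and Serping1 passed adjustment over both, beside 0.205% of all genes. In 12 alternative fits of all mice, C3ar1 and Serping1 each passed adjustment over both in 5, C1qc in 2, and C1qa and C1qb in 1 each. These fits share the same mice and are not independent. The shares of all genes passing adjustment in them are not given here, so these counts have no background beside them.

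**Figure D1:**
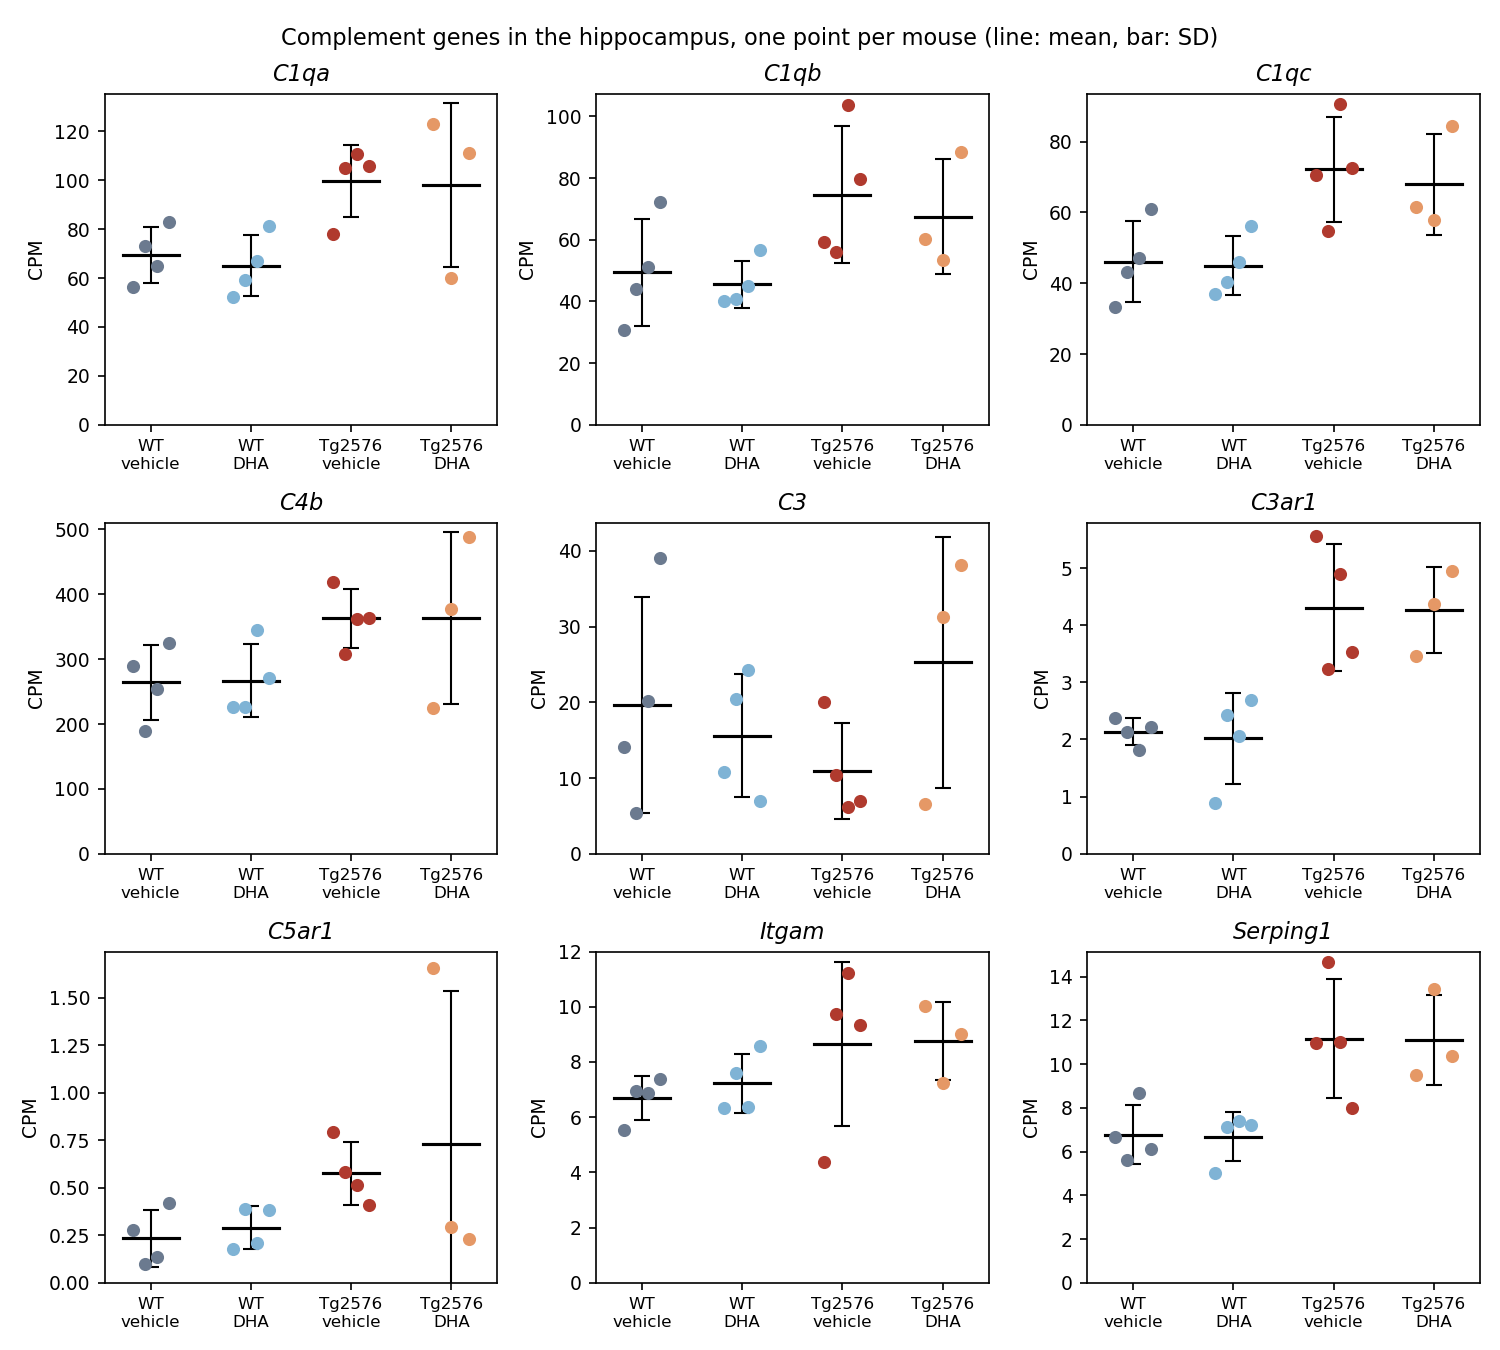
Level of each gene in CPM (y axis, from 0) in each mouse, by group (x axis), with the mean as a line and the SD as a bar, cut at 0 where it would run below. All 7 Tg2576 mice lie above all 8 WT mice for C3ar1, whereas the 4 groups of C3 overlap throughout.

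C1qa, C1qb and C1qc lie side by side on the minus strand of chromosome 4, at 136895917-136898803, 136880129-136886187 and 136889804-136893065 (GRCm38). C1qc stood at 33.3, 43.1, 47.2 and 61.0 CPM in the WT vehicle mice and at 37.1, 40.5, 46.0 and 56.3 CPM in the WT DHA mice. It stood at 54.7, 70.7, 72.6 and 90.8 CPM in the Tg2576 vehicle mice and at 58.0, 61.6 and 84.4 CPM in the Tg2576 DHA mice. Under vehicle the lowest Tg2576 mouse fell within the WT range, and under DHA all 3 Tg2576 mice were above all 4 WT mice, by a small margin. The fitted fold was 1.56 under vehicle (log2 0.65, SE 0.19, adjusted p = 0.250) and 1.51 under DHA (log2 0.60, SE 0.20, adjusted p = 0.565). Over both treatments it was 1.54 (95% interval 1.25 to 1.89), with an exact stratified permutation p of 0.00327, two-sided. The call under DHA sat at the threshold and was lost for 9 of the 15 mice when each was left out in turn. It held without Tg2576 DHA mouse 2, Tg2576 vehicle mouse 2 or 3, WT DHA mouse 4 and WT vehicle mouse 1 or 4. Under vehicle it was lost without Tg2576 vehicle mouse 3 (log2 0.52) and WT vehicle mouse 1 (log2 0.52) or 2 (log2 0.63).

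C1qa stood at 56.4, 64.9, 73.1 and 83.1 CPM in the WT vehicle mice and at 52.4, 59.2, 66.9 and 81.4 CPM in the WT DHA mice. It stood at 78.0, 105, 106 and 111 CPM in the Tg2576 vehicle mice and at 60.2, 111 and 123 CPM in the Tg2576 DHA mice. In each Tg2576 group 1 mouse lay within the WT range and the others above it. Under vehicle the fold was 1.44 and under DHA 1.51 (adjusted p = 0.364 and 0.604), and neither passed. Over both it was 1.47 (95% interval 1.19 to 1.82, adjusted p = 0.135, exact stratified permutation p = 0.0139), and this passed. The values passed under vehicle without Tg2576 vehicle mouse 1 (log2 0.63) or Tg2576 DHA mouse 2 (log2 0.54). Under DHA they passed without Tg2576 DHA mouse 2 (log2 0.85) or WT DHA mouse 4 (log2 0.72).

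C1qb stood at 30.6, 44.1, 51.0 and 72.1 CPM in the WT vehicle mice and at 40.1, 40.7, 44.9 and 56.5 CPM in the WT DHA mice. It stood at 56.0, 59.1, 79.8 and 104 CPM in the Tg2576 vehicle mice and at 53.5, 60.2 and 88.6 CPM in the Tg2576 DHA mice. The groups overlapped under both treatments, and WT vehicle mouse 4 was above 4 of the 7 Tg2576 mice. Under vehicle the fold was 1.51 and under DHA 1.48 (adjusted p = 0.420 and 0.734), and neither passed. Over both it was 1.49 and passed (95% interval 1.13 to 1.97, adjusted p = 0.243, exact stratified permutation p = 0.0106). The call over both was lost for 10 of the 15 mice when each was left out in turn. It held without Tg2576 DHA mouse 2, Tg2576 vehicle mouse 1 or 2, WT DHA mouse 4 and WT vehicle mouse 4, and under vehicle the gene passed without WT vehicle mouse 4 (log2 0.84).

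After each group's mean was taken off, C1qb and C1qc followed each other over the 15 mice (Pearson r = 0.95, Spearman rho = 0.94, permutation p = 1e-05 for both, the smallest that 100000 permutations can give, adjusted p = 0.00081 over 81 relations), and r was 0.93 without the 2 mice farthest from the median. C1qa followed C1qb with r = 0.64 and rho = 0.71 (permutation p = 0.0180 and 0.00652, adjusted p = 0.146 and 0.106) and C1qc with r = 0.58 and rho = 0.60 (permutation p = 0.0396 and 0.0284, adjusted p = 0.292 and 0.205). Per kilobase, C1qb was 1.81 ± 0.16 times C1qc (SD over 15 mice, range 1.48 to 2.10), while C1qa was 2.72 ± 0.50 times C1qc (range 1.93 to 3.71). The ratio of C1qa to C1qc ran from 2.63 to 2.71 in the WT DHA mice and from 1.93 to 3.71 in the Tg2576 DHA mice, and its group means ran from 2.64 in Tg2576 vehicle to 2.85 in WT vehicle mice. Whether the C1qa correlations differ from that of C1qb with C1qc was not tested.

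C4b, the classical pathway component cleaved next after C1, lies on chromosome 17 at 34728380-34743882. It stood at 189, 254, 289 and 325 CPM in the WT vehicle mice and at 226, 227, 270 and 345 CPM in the WT DHA mice. It stood at 308, 361, 364 and 419 CPM in the Tg2576 vehicle mice and at 225, 377 and 488 CPM in the Tg2576 DHA mice, the lowest of which was level with the lowest WT DHA mice. The fold was 1.37 under vehicle (adjusted p = 0.464), 1.36 under DHA (adjusted p = 0.754) and 1.37 over both (95% interval 1.08 to 1.73, adjusted p = 0.273, exact stratified permutation p = 0.0351), and none of these passed. It passed over both without Tg2576 DHA mouse 1 (log2 0.58), WT DHA mouse 3 (log2 0.53) or WT vehicle mouse 4 (log2 0.51), and under DHA without Tg2576 DHA mouse 1 (log2 0.70). Of the 5330 windows of 50 bases in the longest C4b transcript, 35.2% also occur in transcripts of its neighbour C4a. Reads that match both genes equally are left out by a count of uniquely mapped reads, unless the other read of a pair places them. How many C4b reads were left out was not measured. C4a itself was spread from 5.90 to 45.8 CPM over the mice.

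C3, on which all pathways meet, lies on chromosome 17 at 57203970-57228136. It stood at 5.42, 14.1, 20.1 and 39.0 CPM in the WT vehicle mice and at 6.91, 10.8, 20.5 and 24.3 CPM in the WT DHA mice. It stood at 6.23, 6.99, 10.4 and 19.98 CPM in the Tg2576 vehicle mice and at 6.55, 31.2 and 38.1 CPM in the Tg2576 DHA mice. Each group held a mouse under 7 CPM, and all groups overlapped. The fold between genotypes was 0.548 under vehicle (95% interval 0.195 to 1.54, exact permutation p = 0.343), 1.62 under DHA (0.545 to 4.81, exact p = 0.571) and 0.942 over both (0.444 to 1.997, exact p = 0.873). The upper bound under vehicle was below the folds of C1qc, Serping1, C3ar1 and C5ar1 there, and that over both was below those of C3ar1 and C5ar1. The intervals of these genes nevertheless overlapped that of C3 in each case. Whether C3 differed from them was not tested. The highest mouse was 7.20 times the lowest. The SD within groups was 1.04 on the log2 scale, beside a median of 0.18 for the 4832 tested genes with a mean between 10 and 40 CPM, of which 35 (0.724%) varied as much as C3 or more. Within groups C3 followed C4b with r = 0.77 and rho = 0.72 (permutation p = 0.0122 and 0.0162, adjusted p = 0.122 and 0.131), and with r = 0.55 without the 2 farthest mice.

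C3ar1, the receptor of the C3a peptide on chromosome 6 at 122847138-122856161, was the only one of the 9 genes in which all 7 Tg2576 mice were above all 8 WT mice, a separation that 0.189% of all tested genes showed in that direction. It stood at 1.82, 2.13, 2.23 and 2.37 CPM in the WT vehicle mice and at 0.880, 2.07, 2.44 and 2.69 CPM in the WT DHA mice. It stood at 3.23, 3.54, 4.90 and 5.56 CPM in the Tg2576 vehicle mice and at 3.46, 4.37 and 4.96 CPM in the Tg2576 DHA mice. These are small counts, 20 to 148 reads a mouse. The fold was 2.002 under vehicle (SE 0.28 on the log2 scale, adjusted p = 0.209) and 2.11 under DHA (log2 1.07, SE 0.30, adjusted p = 0.536). Over both treatments it was 2.05 (95% interval 1.53 to 2.76, adjusted p = 0.0486), and the exact stratified permutation p was 0.000816, the smallest this design allows. With 1 mouse left out the adjusted p over both ran from 0.0432 to 0.127, and the call under DHA was lost without Tg2576 DHA mouse 3 (log2 0.95).

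C5ar1, the receptor of C5a on chromosome 7 at 16246743-16259540, was close to the limit of detection, with 2 to 46 reads a mouse. It stood at 0.0967, 0.135, 0.280 and 0.421 CPM in the WT vehicle mice and at 0.176, 0.207, 0.384 and 0.390 CPM in the WT DHA mice. It stood at 0.406, 0.516, 0.582 and 0.795 CPM in the Tg2576 vehicle mice and at 0.232, 0.296 and 1.66 CPM in the Tg2576 DHA mice. Mouse 1 of the Tg2576 DHA group held the highest value of all and the other mice of that group lay within the WT DHA range. The fold was 2.32 under vehicle (adjusted p = 0.495), 2.45 under DHA (adjusted p = 0.734) and 2.39 over both (95% interval 1.24 to 4.59, adjusted p = 0.274, exact stratified permutation p = 0.0302), and none of these passed. Without Tg2576 DHA mouse 1 the difference under DHA turned to -0.13 on the log2 scale and that over both was 0.55. Over both it passed without Tg2576 DHA mouse 2 (log2 1.45) or 3 (log2 1.46) or WT vehicle mouse 4 (log2 1.46).

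Itgam, on chromosome 7 at 128062640-128118491, stood at 5.53, 6.89, 6.96 and 7.37 CPM in the WT vehicle mice and at 6.34, 6.36, 7.60 and 8.59 CPM in the WT DHA mice. It stood at 4.37, 9.35, 9.73 and 11.2 CPM in the Tg2576 vehicle mice and at 7.24, 9.02 and 10.04 CPM in the Tg2576 DHA mice. Mouse 1 of the Tg2576 vehicle group was the lowest of all 15, whereas the other 3 of its group were above every WT vehicle mouse. The fold was 1.30 under vehicle (adjusted p = 0.559), 1.21 under DHA (adjusted p = 0.851) and 1.26 over both (95% interval 0.992 to 1.59, exact stratified permutation p = 0.123), and none of these passed. Without Tg2576 vehicle mouse 1 it passed under vehicle (log2 0.60) and over both (log2 0.44, adjusted p = 0.0964). Within groups Itgam followed C1qa with r = 0.70 and rho = 0.79 (permutation p = 0.00101 and 0.000220, adjusted p = 0.0273 and 0.00891), and r was 0.68 without the 2 farthest mice.

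Serping1, the inhibitor, lies on chromosome 2 at 84765387-84775444. It stood at 5.61, 6.11, 6.68 and 8.68 CPM in the WT vehicle mice and at 5.02, 7.14, 7.20 and 7.40 CPM in the WT DHA mice. It stood at 8.01, 10.96, 11.001 and 14.7 CPM in the Tg2576 vehicle mice and at 9.5, 10.4 and 13.4 CPM in the Tg2576 DHA mice. Of the 56 pairs of a Tg2576 and a WT mouse, only that of Tg2576 vehicle mouse 4 and WT vehicle mouse 3 had the WT mouse higher. The fold was 1.65 under vehicle (log2 0.72, SE 0.19, adjusted p = 0.198) and 1.66 under DHA (log2 0.73, SE 0.21, adjusted p = 0.536). Over both it was 1.65 (95% interval 1.34 to 2.04, adjusted p = 0.0486, exact stratified permutation p = 0.00163). With 1 mouse left out the adjusted p over both ran from 0.0340 to 0.117. The call was lost under vehicle without Tg2576 vehicle mouse 2 (log2 0.56) and under DHA without Tg2576 DHA mouse 2 (log2 0.57) or WT DHA mouse 1 (log2 0.62).

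Counted as groups that did not overlap, 1 of the 9 genes (C3ar1) had all Tg2576 mice above all WT mice under vehicle, beside 5.16% of all genes in either direction and 2.18% higher. Under DHA 3 did (C1qc, C3ar1 and Serping1), beside 8.56% and 3.91%. The smallest p of an exact permutation test is 0.0286 with 4 mice against 4 and 0.0571 with 4 against 3.

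**Figure D2:**
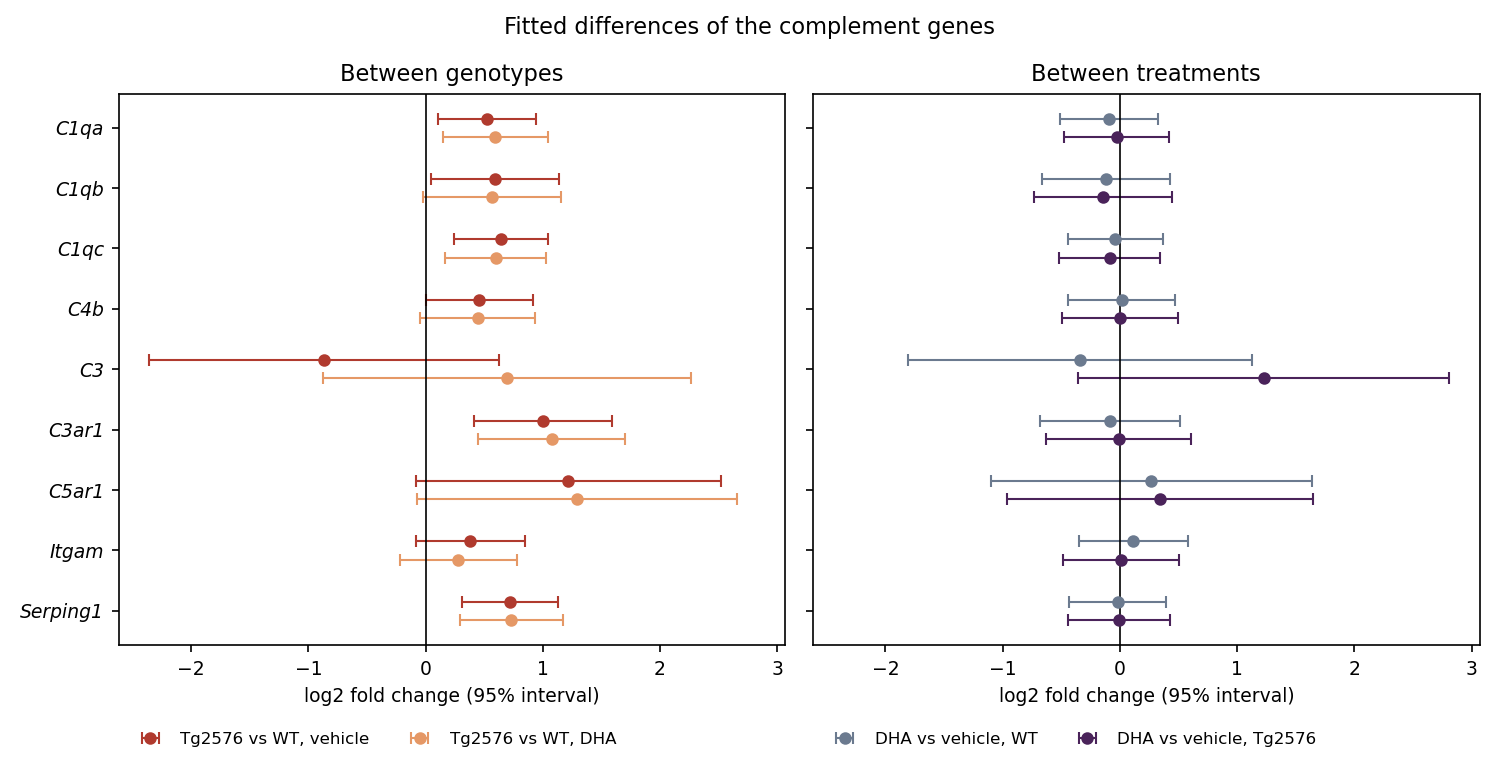
Fitted log2 fold changes (x axis) of the 9 genes (y axis) with 95% intervals, between genotypes under each treatment (left) and between treatments in each genotype (right). Between genotypes 8 of the 9 genes lie right of 0 under vehicle and 9 under DHA, and between treatments the interval of every gene covers 0.

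DHA did not detectably move any of the 9 genes. With edgeR none of them passed in WT mice (beside 1.38% of all genes), in Tg2576 mice (0.353%), over both genotypes (0.87%) or for the interaction of genotype and DHA (0.829%). The number with an unadjusted p under 0.05 was 0 in each. Of all 19536 genes, 1157, 618, 738 and 1001 had such a p, in the same order. DESeq2 and limma-voom also called 0 of the 9, beside 0.379% to 2.03% of all genes. No gene had its DHA mice all above or all below its vehicle mice, beside 5.02% of all genes in WT and 3.21% in Tg2576 mice. The median log2 fold change of DHA over the 9 genes was -0.04 in WT and -0.01 in Tg2576 mice.

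For most members the intervals left room for moderate effects. Leaving aside C3 and C5ar1, the 95% intervals of the DHA fold lay between 0.624 and 1.49 in WT mice, where the lower bound was that of C3ar1 and the upper that of Itgam. In Tg2576 mice they lay between 0.600, for C1qb, and 1.52, for C3ar1. C3ar1, for example, had means of 2.14 ± 0.231 CPM (SD) on vehicle and 2.02 ± 0.800 CPM on DHA in WT mice, and of 4.31 ± 1.11 and 4.26 ± 0.757 CPM in Tg2576 mice. C3 had the largest point estimate, a fold of 2.34 in Tg2576 mice (95% interval 0.779 to 7.02, exact permutation p = 0.286) and 0.791 in WT mice (0.286 to 2.19, exact p = 0.829). The interaction for C3 was 1.56 on the log2 scale (SE 0.99, adjusted p = 0.845). For the other 8 genes the interactions lay between -0.10 and 0.08 on the log2 scale, and their SEs between 0.28 and 0.93.

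Markers of several cell types differed between genotypes beside these genes, and their part in the results was not tested. Of 9 markers of homeostatic microglia (led by Csf1r and Cx3cr1), 0 were called under vehicle, where 6 were higher and 3 lower, 4 under DHA and 3 over both, beside 3.09%, 1.75% and 3.85% of all genes. Those called were higher in Tg2576, and the list's median log2 difference was 0.091 under vehicle, 0.45 under DHA and 0.29 over both. Their summed level was 301 to 326 CPM in WT vehicle, 271 to 304 in WT DHA, 248 to 392 in Tg2576 vehicle and 329.6 to 421 CPM in Tg2576 DHA mice. In the Tg2576 vehicle group mouse 1 was the one at 248 CPM. Mice 2, 3 and 4 of that group stood at 374, 392 and 335 CPM, above every WT vehicle mouse. Of 10 markers of plaque-associated microglia (led by Ctsd and Lpl, and including Itgax), 4 were called under vehicle, 6 under DHA and 8 over both, all higher. Of all genes, 1.16%, 1.06% and 1.94% were called higher in these comparisons. The summed level of these markers was 332 to 394, 307 to 398, 314 to 567 and 374 to 615 CPM in the same order of groups. Tg2576 vehicle mouse 1 was again the lowest of its group, and mice 2, 3 and 4 stood at 542, 567 and 515 CPM. A fit with the mean of the plaque-associated markers as a term was an alternative chosen after the data were seen. In it 1 of the 9 genes passed over both treatments, Serping1 (log2 0.76), beside 2.77% of all genes. C3ar1 was at 0.85 and did not pass. C1qa turned to -0.060 and C1qb was at 0.073 under that term, which itself differed between genotypes. With the homeostatic markers in its place, C1qc, C3ar1 and Serping1 passed, beside 4.32% of all genes.

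Of 6 astrocyte markers (led by Gfap and Slc1a3), 1 was called under vehicle, under DHA and over both, beside 3.09%, 1.75% and 3.85% of all genes. This was Gfap, the intermediate filament of reactive astrocytes. Its log2 difference was 1.02 under vehicle, 1.01 under DHA and 1.01 over both (SE 0.13, adjusted p = 0.00457). Summed, the 6 stood at 1509 to 1690.2 CPM in WT vehicle, 1434 to 1661 in WT DHA, 1789 to 2416 in Tg2576 vehicle and 1848 to 2717 CPM in Tg2576 DHA mice, so that all 7 Tg2576 mice were above all 8 WT mice, but their median log2 difference over both was 0.015. None of 6 perivascular macrophage markers (led by Cd163 and Mrc1) was called between genotypes, beside 3.85% of all genes over both. All 6 had a positive difference over both (median log2 0.80). Their sum was 3.39 to 4.57 CPM in WT vehicle, 2.69 to 5.74 in WT DHA, 3.50 to 8.63 in Tg2576 vehicle and 4.93 to 12.4 CPM in Tg2576 DHA mice. The 6 markers of hippocampal neurons had negative differences over both (median log2 -0.25). There 2 were called lower, Prox1 and Wfs1, beside 3.85% of all genes in either direction. Prox1 was named after its values were seen. The sum of the 6 markers was 569 to 669.7 CPM in WT vehicle, 513 to 718 in WT DHA, 516 to 573 in Tg2576 vehicle and 493 to 555 CPM in Tg2576 DHA mice.

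Within groups, C1qa followed the mean of the plaque-associated markers with r = 0.82 and rho = 0.80 (permutation p = 0.00151 and 0.000810, adjusted p = 0.0306 and 0.0164, r = 0.82 without the 2 farthest mice). Itgam followed that of the homeostatic markers with r = 0.91 and rho = 0.81 (permutation p = 0.00495 and 0.00835, adjusted p = 0.0802 and 0.113), and r was 0.67 without the 2 farthest. With the other microglial list, Itgam had r = 0.76 and rho = 0.69 (plaque-associated markers). C1qa had r = 0.54 and rho = 0.65 (homeostatic markers). For both genes the adjusted permutation p was 0.122 for r and 0.131 for rho. Serping1 followed the mean of 6 meningeal fibroblast markers (led by Dcn and Slc6a13), with r = 0.87 and rho = 0.86 (permutation p = 0.000330 and 0.000410, adjusted p = 0.0134 and 0.0111), and r was 0.76 without the 2 farthest. It followed the choroid plexus markers with r = 0.70 and rho = 0.62 (permutation p = 0.0112 and 0.0304, adjusted p = 0.122 and 0.205) and the astrocyte markers with r = 0.56 and rho = 0.55 (permutation p = 0.0673 and 0.0753, adjusted p = 0.359 for both). For C3 the corresponding r was 0.46 with the meningeal, 0.39 with the choroid plexus and 0.56 with the astrocyte markers, and none of these passed adjustment (adjusted p = 0.426, 0.659 and 0.317). Summed, the 6 meningeal fibroblast markers ran from 26.1 to 54.4 CPM in WT vehicle, 33.3 to 71.9 in WT DHA, 22.0 to 99.9 in Tg2576 vehicle and 38.1 to 102 CPM in Tg2576 DHA mice, and their median log2 difference between genotypes was 0.59 over both. With their mean in the fit the genotype difference of Serping1 was 0.57 on the log2 scale over both treatments and still passed. With the mean of the choroid plexus markers it was 0.57 over both, which passed, and 0.45 under DHA, where the call was lost. Under DHA that term left 1 of the 9 genes called, C1qc (log2 0.73), beside 0.85% of all genes.

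**Figure D3:**
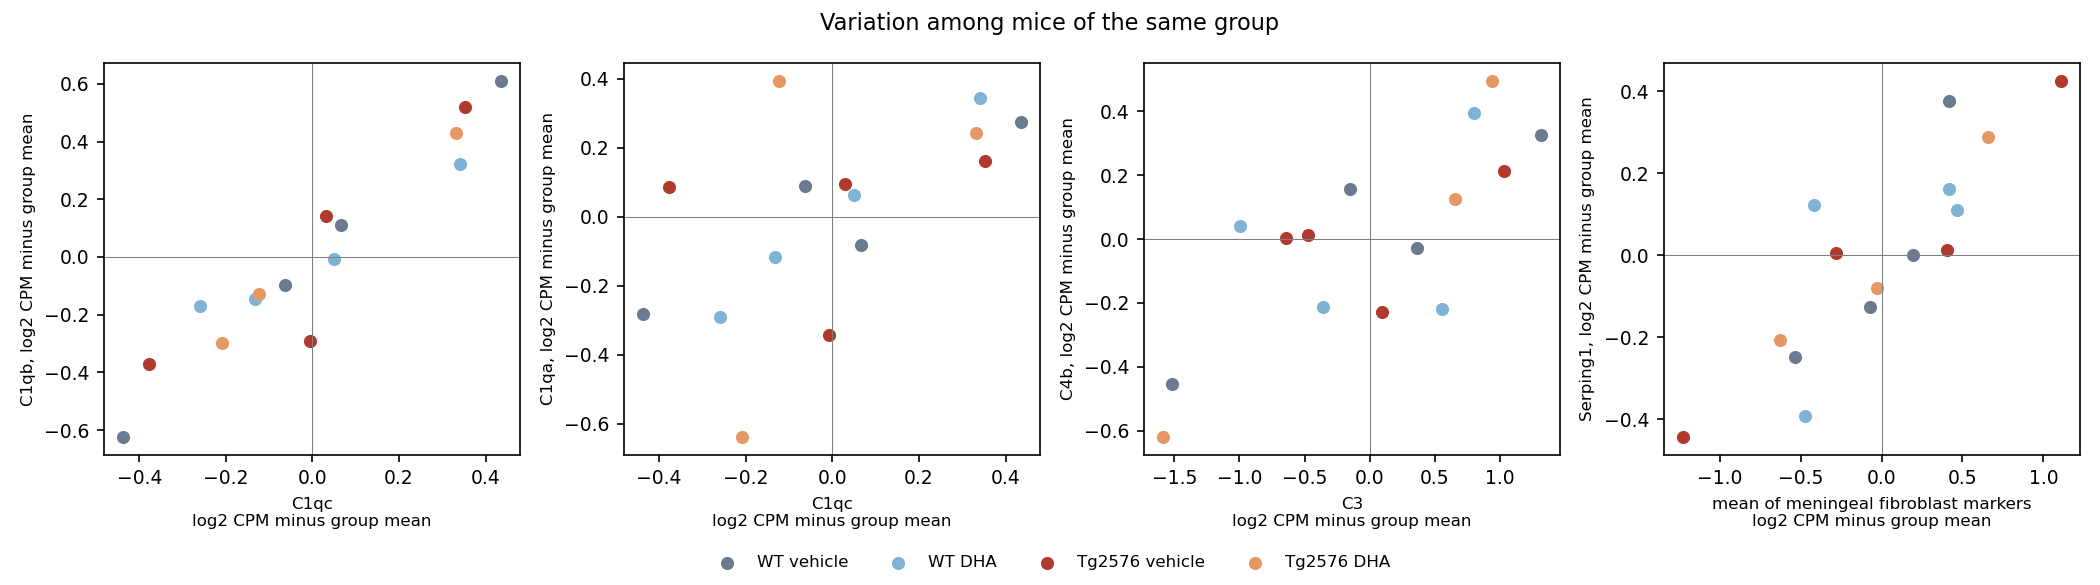
Each point is a mouse, coloured by group, and both axes give log2 CPM minus the mean of its group. C1qb follows C1qc with r = 0.95 and C1qa follows it with r = 0.58, a difference that was not tested, C4b follows C3 with r = 0.77, and Serping1 follows the meningeal fibroblast markers with r = 0.87.

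Of 50 other complement genes, 36 could be tested. Under vehicle 1 passed, the C1 protease gene C1s1, a share no higher than the 3.09% of all genes called there. Under DHA 4 did, C1s1, Itgb2, Itgax and Cd55, beside 1.75% of all genes, and each of these was higher in Tg2576. Over both treatments 3 were higher (C1s1, Itgb2 and Itgax) and 1 was lower (Susd4), beside 3.85% of all genes. Their median log2 fold change over both was 0.081. No gene of this list was called for DHA within a genotype by edgeR, beside 1.38% of all genes in WT and 0.353% in Tg2576 mice. In each genotype 1 had an unadjusted p under 0.05, beside 1157 (WT) and 618 (Tg2576) of all 19536 genes. DESeq2 and limma-voom called none, beside 0.379% to 2.03% of all genes.

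C1s1, the protease that C1q activates together with C1r and that Serping1 inhibits, stood at 0.507 to 0.879 CPM in the 8 WT mice. It stood at 0.965, 1.06, 1.58 and 2.36 CPM in the Tg2576 vehicle mice and at 1.37, 1.51 and 1.95 CPM in the Tg2576 DHA mice. All 7 Tg2576 mice were above all 8 WT mice, as for C3ar1, a separation that 0.189% of all tested genes showed in that direction. The counts of C1s1 were small, 13 to 66 reads a mouse. The log2 fold change was 1.18 under vehicle (SE 0.32), 1.19 under DHA (SE 0.34) and 1.19 over both (SE 0.23, adjusted p = 0.0486, exact stratified permutation p = 0.000816). C1ra, the most abundant of the C1 protease genes, had a difference of 0.29 over both (SE 0.20, adjusted p = 0.630).

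Among the receptors, Itgb2, the beta chain that pairs with Itgam, had a log2 difference of 0.48 over both (SE 0.13, adjusted p = 0.154). Itgax, the alpha chain of complement receptor 4, had one of 1.33 over both (SE 0.37, adjusted p = 0.167). Under vehicle it was 0.61 (SE 0.50, adjusted p = 0.699), with overlapping groups at 1.05 to 3.24 CPM in WT and 2.50 to 5.12 CPM in Tg2576 mice. Under DHA it was 2.04 (SE 0.55, adjusted p = 0.536), with 0.176 to 1.55 CPM in WT and 1.77 to 7.56 CPM in Tg2576 mice. The WT mean was 2.16 CPM on vehicle and 1.03 CPM on DHA. Among the regulators, the membrane regulator gene Susd4 fell by 0.16 over both (SE 0.056, adjusted p = 0.258). Cd55, which speeds the decay of C3 convertases, had values of 2.78, 2.82, 3.41 and 4.34 CPM in WT DHA mice and of 5.25, 6.12 and 6.83 CPM in Tg2576 DHA mice, with no overlap (log2 0.86, SE 0.22, adjusted p = 0.499). Of all genes, 3.91% had every Tg2576 mouse above every WT mouse under DHA.

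The most abundant genes of the other roles did not pass between genotypes. Clu, which restrains the terminal complex and was the most abundant of the list at 893 to 1392 CPM, had a log2 difference of 0.18 over both (SE 0.081, adjusted p = 0.390). The corresponding differences were 0.16 for C4a (SE 0.47), 0.05 for Masp1 of the lectin pathway (SE 0.11), -0.17 for Cfp of the alternative pathway (SE 0.12) and -0.22 for C8g of the terminal pathway (SE 0.15).

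**Figure D4:**
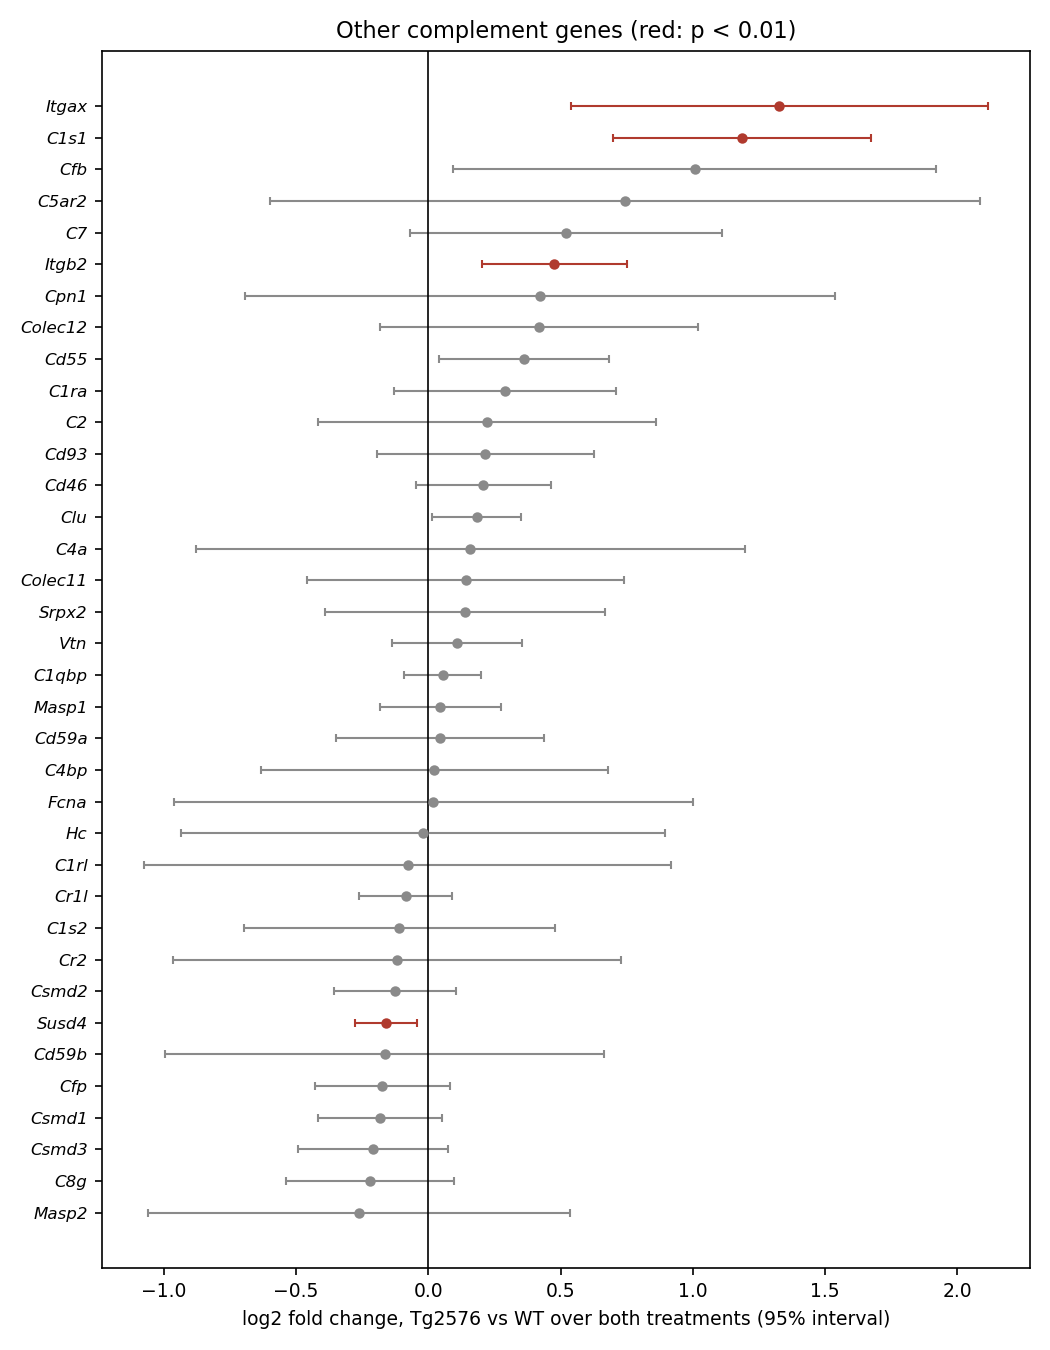
Difference of Tg2576 from WT over both treatments as log2 fold change (x axis) with 95% intervals for the 36 other complement genes tested (y axis), with those at an unadjusted p under 0.01 in red. C1s1, Itgax and Itgb2 lie right of 0, and Susd4 lies left of it.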

How the data were processed

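The deposited files held raw read counts per gene, 1 file a mouse. Per the submitters' processing notes and the file headers, the authors aligned reads with STAR 2.6.1c to GRCm38 and counted them with featureCounts 1.6.0 on GENCODE M25, per read and without strand. Among genes with 1 to 10 reads, 78.4% to 82.4% had even counts, as when both reads of a pair count. The sources differ on the library kit. Symbols came from a GENCODE M21 table, which matched 55141 of 55401 IDs. Counts were tested with edgeR 4.0.16 (R 4.3.3): TMM scaling, filterByExpr with a minimum count of 10, a quasi-likelihood fit of the 4 groups with robust dispersions, and Benjamini-Hochberg adjustment over the 19536 genes tested. DESeq2 1.42.0 and limma 3.58.1 were alternatives. In simulated counts, with changes of 1 on the log2 scale (larger than those of most members), the test called 68.4% of 196 changed genes under vehicle and 78.1% over both treatments, and 0.906% and 0.885% of unchanged genes. Log2 CPM used a prior count of 2. Permutation tests were two-sided, within groups for correlations and within treatment for genotype over both. No replicate pair agreed within sampling noise (chi-square per gene 7.59 to 26.9).

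The members and lists were chosen with earlier results of these data known. A gene of the other complement list and a homeostatic marker are not reported here and were left out of those lists. Named were the members, App, other complement genes with p under 0.01 in any comparison (at most 12) or most abundant in their role, the 8 genes most like C1q, C4b and C3, and the 2 most abundant genes of each marker list that the text uses.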

Additional observations from a re-analysis of the deposited data

Results flagged for a closer look

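In 30 sets of a gene and a group of 4 mice, 2 held a mouse far from the others by Dixon's ratio at 95%, beside about 1 in 20 by chance. C1qa was at 78.0 CPM in Tg2576 vehicle mouse 1 and at 105 to 111 CPM in the other 3 mice. Serping1 was at 5.02 CPM in WT DHA mouse 1 and at 7.14 to 7.40 CPM in the other 3.

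Among the other complement genes, the genotype difference of Cd55 itself differed between the treatments, by 1.005 on the log2 scale (SE 0.31, edgeR adjusted p = 0.845, unadjusted p under 0.01): it was -0.14 under vehicle and 0.86 under DHA. Cd55 was the 1 gene called for the interaction among the 36 of that list that were tested, beside 0.829% of all genes. The call was lost when WT DHA mouse 1 or 4 was left out, and no gene passed the interaction after adjustment.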

How the results depend on the processing

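Unless stated otherwise, the cause of a change was not tested. The share of all genes called in the same fit is given in brackets. Of the 9 genes, the number called under vehicle was 3. It became 5 with only the groups compared in the fit (2.71%) and 1 with the plaque-associated microglial term (2.43%). Under DHA it was 3. It became 1 with the homeostatic microglial (2.29%) or the choroid plexus term (0.85%) and 0 with the plaque-associated term (2.1%). Over both it was 5 and became 3 with the homeostatic (4.32%) and 1 with the plaque-associated term (2.77%). Leaving out 1 mouse gave 2 to 5 under vehicle (5 without Tg2576 vehicle mouse 1), 1 to 4 under DHA (1 without Tg2576 DHA mouse 3 or WT DHA mouse 1) and 4 to 7 over both. In those fits 1.6% to 4.95% of all genes were called under vehicle, 0.971% to 2.3% under DHA and 2.61% to 5.17% over both. For DHA and the interaction the count was 0 in every alternative, beside 0.156% to 2.64% of all genes. The labels do not say whether the replicate numbers pair the mice. Of 21 same-numbered pairs, 4 had deviations correlated over 0.1, and 5 of 15 mice correlated best with their own number. With so few mice a group and no test, this cannot decide the question. A replicate block gave 5 calls under DHA in place of 3, beside 1.26% of all genes.

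With the plaque-associated term, log2 differences turned to -0.15 for Itgam under vehicle. Under DHA they turned to -0.17 for C1qa, -0.049 for C1qb and -0.47 for Itgam, and over both to -0.060 for C1qa, 0.24 for C3 and -0.31 for Itgam. With the homeostatic term they turned to -0.29 for Itgam under DHA, and to 0.12 for C3 and -0.037 for Itgam over both. Leaving out 1 mouse gave -0.13 to 1.71 for C5ar1 under DHA, -0.31 to 0.20 for C3 over both and -0.64 to 0.23 for the DHA difference of C3 in WT mice.

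The number of other complement genes called ranged from 0 to 2 under vehicle, 0 to 5 under DHA and 0 to 5 over both across the alternatives. Of all genes, 1.6% to 4.95%, 0.85% to 2.48% and 2.43% to 5.17% were called, in the same order. C5ar1, with 2 to 46 reads a mouse, was limited by depth and gave no value with at least 10 counts in every mouse, with halved counts or, under DHA, with only the groups compared.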

Other observations

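Genes whose log2 CPM followed a complement gene most closely over all 15 mice were picked by Pearson r, given here as a description across mice of 4 groups. For the mean of C1qa, C1qb and C1qc they were Spi1 (r = 0.91), Vsir, Ctss, Cyba, Fcgr3, Cd52, Laptm5 and Gm11966 (r = 0.87). None of these 8 and 1 of the nearest 50 lies on chromosome 17, which holds 4.90% of the tested genes. For C3 they were Gm10524 (r = 0.86), B230354K17Rik, AC158975.2, H2-T10, Gm49599, Slc25a41, Fam71e1 and Tdrd6 (r = 0.77). Of these, 4 of 8 and 11 of the nearest 50 lie on chromosome 17, as C3 does. For C4b, also on chromosome 17, they were Slc25a17 (r = 0.85), Spns3, Nfatc1, Trim30d, Pnpla3, Sapcd1, Slc43a3 and Tmem220 (r = 0.77), with 1 of 8 and 7 of 50 there. The count by chromosome was chosen after the values were seen and was not tested.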
